A study of Sus scrofa with 30 samples.

Results

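The miR-30 family was described in the porcine endometrium from its small RNA reads. The members were the sequences in the study's list of annotated miRNAs and isomiRs whose name has the root mir-30a, mir-30b, mir-30c, mir-30d or mir-30e, whatever the species prefix, arm or copy suffix. This gave 53 sequences, beside 820 listed sequences of other miRNAs: 31 from 5p arms and 22 from 3p arms, on 9 arms in all. No member of the list came from the 3p arm of miR-30b. Reads were counted by exact match in each library, and 51 of the 53 sequences had reads in all 30 libraries. The members held 2816694 reads.

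The endometrium was taken from Hampshire x Duroc gilts aged 7-8 months from a single herd, with 1 small RNA library per animal. Pregnant gilts had been inseminated and carried conceptuses. They were sampled on day (D) 12 (PD12, n = 5), D16 (PD16, n = 5) and D20 (PD20, n = 6), and cyclic gilts on D12 (CD12, n = 4), D16 (CD16, n = 5) and D20 (CD20, n = 5). Conceptuses were flushed out of the uterine horns up to D16. On D20 of pregnancy the endometrium came from implantation sites, once trophoblast and embryos had been taken off. Tissue handling, sampling site and pregnancy status therefore cannot be told apart on D20. In comparisons of PD20 with PD12 or PD16, handling and site go with the day. In bulk tissue, fewer cells of a type and less RNA per cell cannot be told apart either. Libraries held between 2029729 and 6402731 reads, with a median of 3111079.

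MicroRNAs guide Argonaute proteins to partly complementary sites in mRNAs, mainly through the seed, the bases 2 to 8 from the 5' end. A hairpin precursor can yield a mature strand from each arm, named 5p and 3p, and the strand that is loaded is kept while the other is mostly degraded. The miR-30 family is broadly expressed, is known for its abundance in epithelia and kidney, and is encoded in the pig as in other mammals by hairpins that lie close together: in the RefSeq annotation of Sscrofa11.1, miR-30a neighbours miR-30c-2, miR-30d neighbours miR-30b and miR-30c-1 neighbours miR-30e.

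The most abundant sequence of each 5p arm is shown to compare what the members share, with the seed in capitals. All 5 carry the same seed, and differ behind it.
miR-30a-5p 3' ADD CT: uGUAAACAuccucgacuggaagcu
miR-30d-5p: uGUAAACAuccccgacuggaagcu
miR-30e-5p: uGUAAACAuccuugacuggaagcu
miR-30c-5p: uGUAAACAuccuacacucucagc
miR-30b-5p: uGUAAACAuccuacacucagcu
Forms are named against the canonical miRBase sequence of the arm, where ADD and DEL give the bases gained or lost at the named end. Positions count from 1 at the 5' end, and substitutions are written as DNA. miR-30a-5p and miR-30d-5p differed at 1 of 24 bases (T12C), miR-30a-5p and miR-30e-5p at 1 of 24 (C13T), and miR-30d-5p and miR-30e-5p at 2 (C12T and C13T). miR-30b-5p and miR-30c-5p differed at 4 of the 22 bases they could be compared over.

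The 3p arms are shown because the members called between pregnancy and the cycle on D20 all lie there. The canonical or reference form of each arm comes first, followed by these 3 members.
miR-30a-3p: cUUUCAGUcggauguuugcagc
miR-30e-3p: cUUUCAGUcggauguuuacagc
miR-30d-3p: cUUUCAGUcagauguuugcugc
miR-30c-3p: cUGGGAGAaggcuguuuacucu
miR-30a-3p 3' DEL C: cUUUCAGUcggauguuugcag
miR-30a-3p 5' DEL C, 3' DEL C: uUUCAGUCggauguuugcag
miR-30c-3p 3' DEL CT: cUGGGAGAaggcuguuuacu
The 3p arms of miR-30a, miR-30e and miR-30d share a seed, and that of miR-30c has another. miR-30a-3p and miR-30e-3p differed at 1 of 22 bases (G18A), while miR-30a-3p and miR-30c-3p differed at 10. The loss of the leading C moves the seed by 1 base. In all, 25 members carried the seed GUAAACA and held 95.3% of the member reads, 11 carried UUUCAGU with 2.53% and 4 carried UGGGAGA with 1.2%. The 13 members with a shifted 5' end made up the rest.

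The levels of the arms spanned a wide range. Levels are normalised reads, that is, CPM over the listed sequences after TMM scaling in edgeR, and each is summed over the listed forms of an arm. Each read stands for a whole small RNA, so these levels need no correction for length, but ligation can favour some sequences and was not tested. Over the 30 libraries, miR-30a-5p averaged 23317 ± 7564 (SD, n = 30) normalised reads and miR-30d-5p 9825 ± 7150. The other 5p arms lay far lower. miR-30c-5p, whose listed forms other than the canonical sequence are named for both miR-30c precursors, averaged 810 ± 242, miR-30e-5p 735 ± 251 and miR-30b-5p 598 ± 314. Of the 3p arms, miR-30a-3p averaged 700 ± 421, miR-30c-3p 454 ± 257, miR-30e-3p 338 ± 222 and miR-30d-3p 27.8 ± 23.2 normalised reads.

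In this order, miR-30a-5p was above miR-30d-5p in 28 of 30 libraries, and miR-30d-5p was above miR-30c-5p in 30 of 30. The middle of the order was not settled: miR-30c-5p was above miR-30e-5p in 21 libraries, miR-30e-5p above miR-30a-3p in 14, miR-30a-3p above miR-30b-5p in 17, miR-30b-5p above miR-30c-3p in 19 and miR-30c-3p above miR-30e-3p in 21, and the means of these neighbours differed by less than their SD. miR-30d-3p was below miR-30e-3p in 30 of 30. As shares of the 5p reads of the family, miR-30a-5p took 67.2%, miR-30d-5p 26.2%, and miR-30c-5p, miR-30e-5p and miR-30b-5p 2.42%, 2.34% and 1.83%.

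**Figure D1:**
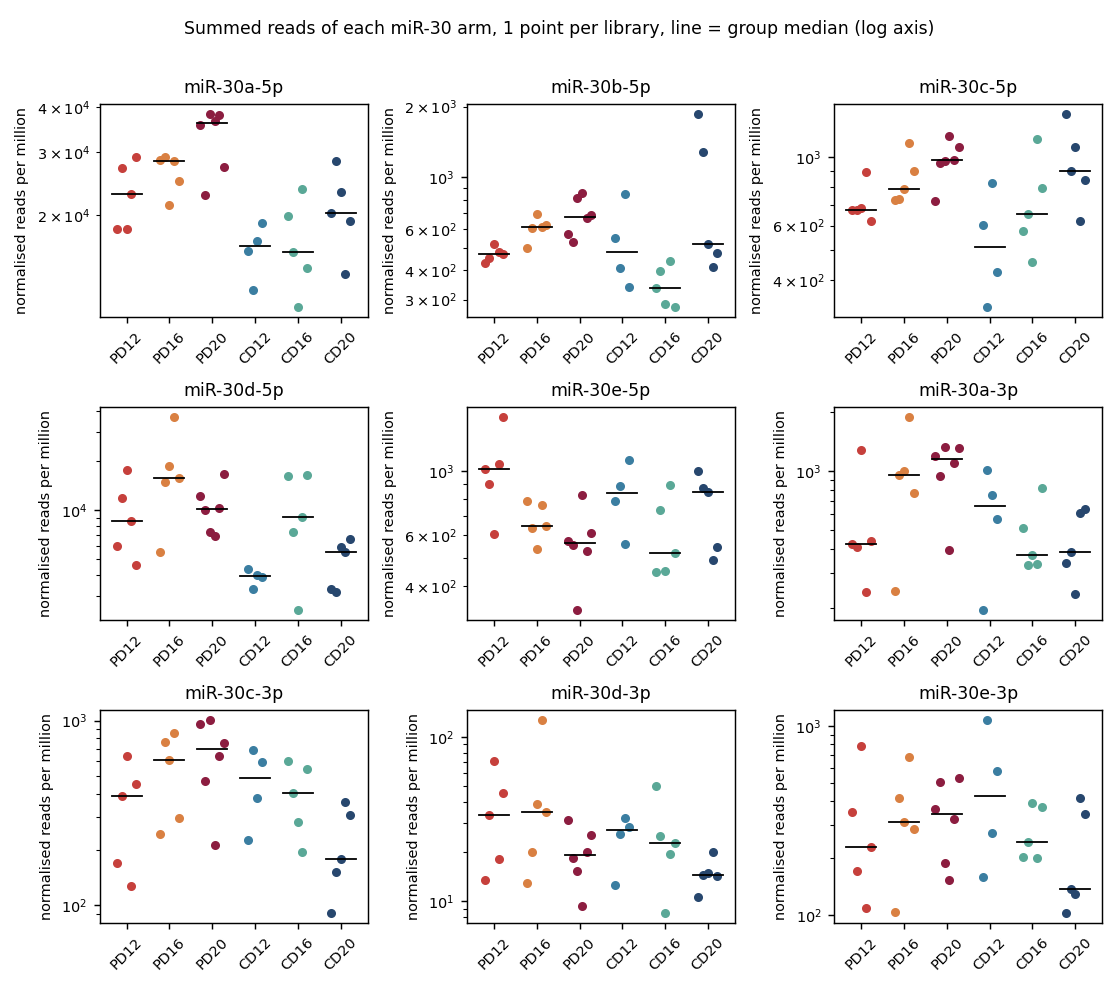
Summed normalised reads (log axis) of each of the 9 miR-30 arms in the 6 groups, with 1 point per library and a line at the group median. The scales differ between panels, and miR-30a-5p lies between 11061 and 38304 and miR-30d-5p between 2456 and 37072, while miR-30d-3p lies between 8.49 and 127.

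All members together made up 3.75% ± 1.34 of the listed reads (n = 30). Before TMM scaling the pregnant groups averaged 3.86% ± 0.68 (PD12), 5.07% ± 1.42 (PD16) and 4.64% ± 1.04 (PD20), and the cyclic groups 2.02% ± 0.49 (CD12), 3.10% ± 1.19 (CD16) and 3.26% ± 0.69 (CD20). The PD12 libraries lay between 3.30% and 4.89% and the CD12 libraries between 1.49% and 2.68%, without overlap, while the ranges of PD16 and CD16 and of PD20 and CD20 overlapped on this scale. After TMM scaling the family totals were 27371 to 41962 normalised reads in PD12 (median 37439) and 20047 to 26542 in CD12 (median 23698), without overlap. They were 36653 to 71398 in PD16 (median 44047) and 15763 to 38597 in CD16 (median 33895), which overlapped. In PD20 they were 36682 to 52612 (median 49541) and in CD20 22159 to 35174 (median 28976), again without overlap. Totals over the members are given as a description, without a test.

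Read length set the arms apart. Among the listed forms, 24-nt reads held 57.8% of miR-30a-5p, 65.9% of miR-30e-5p and 48.5% of miR-30d-5p (means of 30 libraries), and 23-nt reads held 53.5% of miR-30c-5p. miR-30b-5p was almost of a single length, with 89.2% of its reads at 22 nt. Of each hairpin with both arms in the list, the 3p arm had the shorter mean length. Reads of 22 nt held 87.2% of miR-30c-3p, 75.7% of miR-30d-3p and 55.5% of miR-30a-3p, while those of miR-30e-3p were divided between 22 nt (37.4%), 21 nt (38.4%) and 20 nt (21.4%).

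Forms with a shifted 5' end, which carry another seed, made up the largest shares of their arm in miR-30a-3p and miR-30d-3p. They held 16.5% ± 2.07 of the miR-30a-3p reads (12.6% to 20.5% over the 30 libraries) and 24.3% ± 8.80 of the miR-30d-3p reads, the latter from few reads. On the other arms that had such forms, the share was 3.86% of miR-30e-3p, 3.62% of miR-30c-3p, 2.96% of miR-30e-5p and 0.86% of miR-30a-5p. No such form of miR-30b-5p, miR-30c-5p or miR-30d-5p was in the list, which holds only sequences with at least 10 reads in most libraries of a group.

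**Figure D2:**
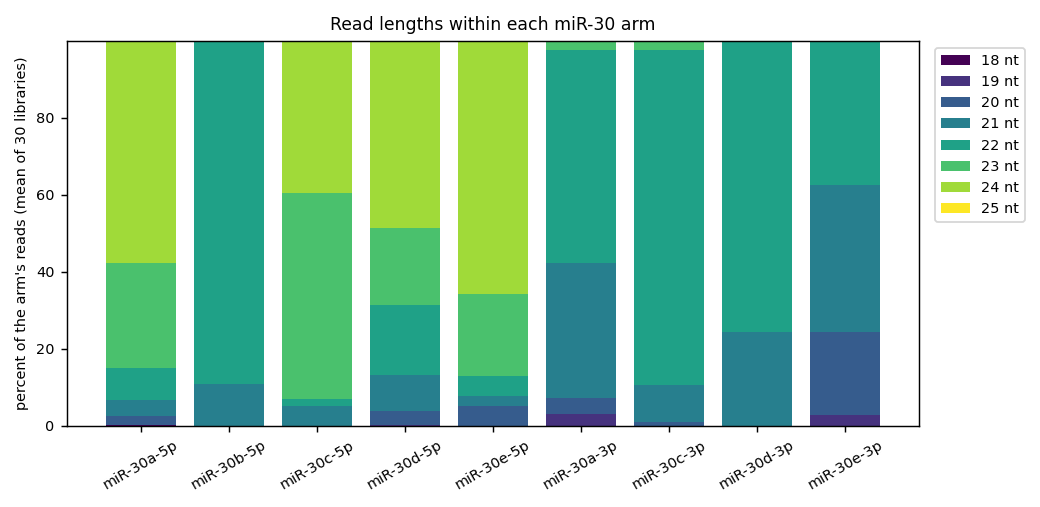
Share of each read length among the listed reads of each miR-30 arm, in percent (mean of 30 libraries), with a color per length from 18 to 25 nt. Reads of 24 nt dominate miR-30a-5p, miR-30d-5p and miR-30e-5p, and reads of 22 nt dominate miR-30b-5p, miR-30c-3p and miR-30d-3p.

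Pregnancy and the cycle were compared on D20. A sequence counted as called where the F-test of edgeR's quasi-likelihood fit gave an adjusted p under 0.05 (Benjamini-Hochberg, over all listed sequences) and the log2 fold change (log2FC) was above 1 or below -1. In PD20 vs CD20, 3 of the 53 members were called, all from 3p arms and all higher in pregnancy, against 1.49% of all listed sequences called in either direction and 0.687% called and higher. They are the 21-nt and 20-nt forms miR-30a-3p 3' DEL C, miR-30a-3p 5' DEL C, 3' DEL C and miR-30c-3p 3' DEL CT, each shorter at the 3' end than the canonical sequence shown above. miR-30c-3p 3' DEL CT met the read threshold of the list through PD20 alone, so its call and its direction are not independent of its listing. The 3 calls depended on the settings: 0 members were called with library sizes set to all deposited reads, with all deposited sequences, at a mean of at least 10 CPM or with the replicate number as a block, and 14 by DESeq2, which called 15% of all listed sequences. At a mean of 4.23 CPM, miR-30c-3p 3' DEL CT was removed by the filter of 10 CPM, so its loss there is no test of its difference.

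miR-30a-3p 3' DEL C had between 150 and 538 normalised reads in PD20 (median 249) and 72.7, 70.5, 85.2, 121 and 98.6 in the 5 CD20 libraries. The lowest PD20 library lay above the highest CD20 library. The log2FC was 1.66 (SE 0.37, adjusted p = 0.0368), a 3.16-fold difference. In PD12 this form had 72.2, 112, 177, 48.8 and 87.8 normalised reads, so that 4 of the 5 libraries lay below the lowest of PD20.

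miR-30a-3p 5' DEL C, 3' DEL C, which also has the shifted seed, had between 12.4 and 51.5 normalised reads in PD20 (median 21.5). The CD20 libraries had 1.52, 5.99, 4.66, 9.47 and 8.57. The groups did not overlap, and the log2FC was 2.09 (SE 0.50, adjusted p = 0.04997), on the edge of the threshold.

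miR-30c-3p 3' DEL CT was scarce. It had between 5.37 and 22.9 normalised reads in PD20 (median 8.05) and 0.757, 1.41, 0.931, 4.46 and 2.38 in CD20, from 11 to 55 reads in a PD20 library and 2 to 8 in a CD20 library. The groups did not overlap, and the log2FC was 2.40 (SE 0.55, adjusted p = 0.0405). Because this form was listed through PD20 alone, neither its non-overlap nor its call is independent of its listing.

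The log2FCs of the other 3p members were positive as well, while those of the 5p members had both signs. The log2FC was positive for 22 of 22 3p members, with a median of 1.09, and for 14 of 31 5p members, with a median of -0.12. Over all listed sequences the median was -0.03 and 48.6% were positive. At an unadjusted p under 0.05 stood 12 of 22 3p members, all higher, and 12 of 31 5p members, 9 higher and 3 lower. The 24 members compare with 28.5% of all listed sequences, 13.3% higher and 15.2% lower. All 12 of the 3p members among them were forms of miR-30a-3p or miR-30c-3p, and none was a form of miR-30d-3p or miR-30e-3p. Of all 53 members, 7 had groups that did not overlap, all higher in PD20, against 2.63% of all listed sequences. The 3p members counted as positive and at an unadjusted p under 0.05 include miR-30c-3p 3' DEL CT and miR-30a-3p 3' ADD C. Both met the read threshold of the list through PD20 alone, and miR-30c-3p 3' DEL CT is also among the members without overlap. The counts of higher members are therefore not independent of the listing. Forms of an arm share their precursor hairpin and are not independent of each other.

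Of the 5p members, the 3 that lay lower at an unadjusted p under 0.05 were all 20-nt forms. miR-30a-5p 3' DEL AG had a log2FC of -1.67 (SE 0.65, adjusted p = 0.112), miR-30e-5p 3' DEL AGCT one of -1.70 (SE 0.60, adjusted p = 0.0884) and miR-30d-5p 3' DEL AGCT one of -0.78 (SE 0.34, adjusted p = 0.145). The 24-nt forms that lead these arms had log2FCs of 1.12 for miR-30a-5p 3' ADD CT (adjusted p = 0.0731), 1.5 for canonical miR-30d-5p (adjusted p = 0.063) and -0.24 for canonical miR-30e-5p (adjusted p = 0.655), none called. The forms miR-30a-5p 3' DEL AG, miR-30e-5p 3' DEL AGCT and miR-30d-5p 3' DEL AGCT were named here after their values were seen.

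**Figure D3:**
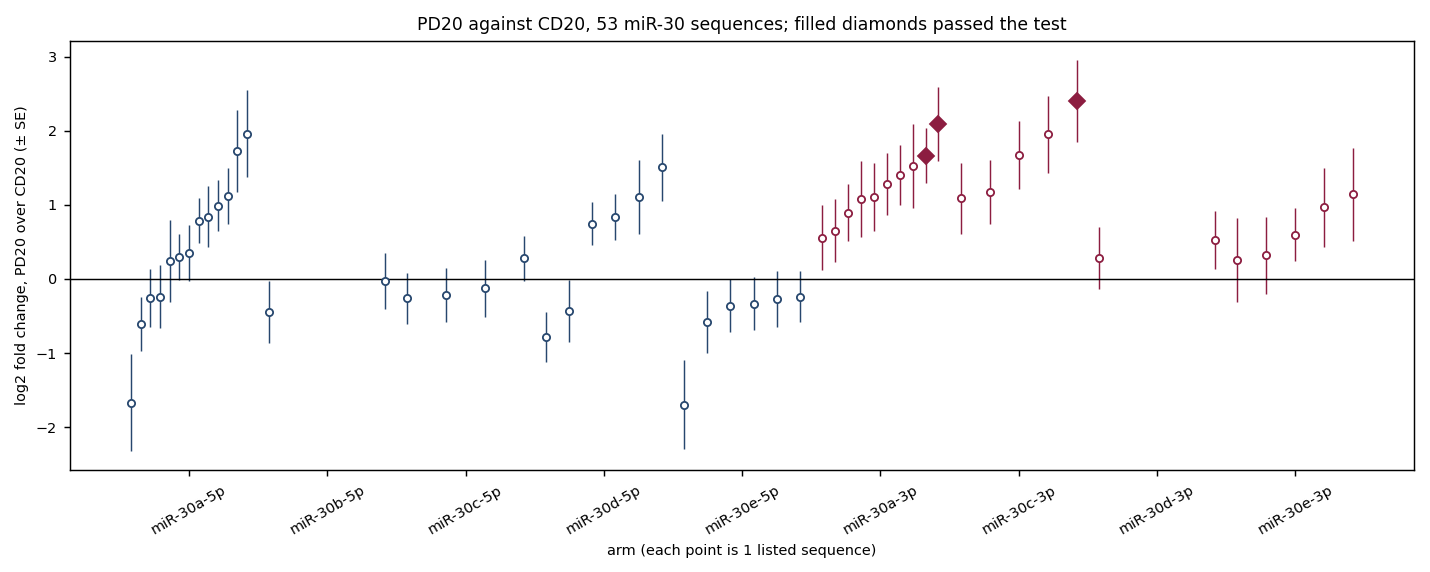
Log2 fold change of PD20 over CD20 (y axis, ± SE) for each of the 53 miR-30 sequences, arranged by arm, with 5p arms in blue and 3p arms in red. All 22 points of the 3p arms lie above 0, the 3 filled diamonds are the members that passed the test, and the 5p arms of miR-30a and miR-30d spread to both sides of 0.

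Summed over forms, no arm passed the test in PD20 vs CD20 (0 of 9, against 0.965% of all features), with 4 arms at an unadjusted p under 0.05 in the F-test of edgeR (27.4% of all features) and 3 called by DESeq2 (13.8%). miR-30c-3p had between 213 and 1009 normalised reads in PD20 (median 699) and 90.9, 152, 177, 363 and 309 in CD20, a log2FC of 1.69 (SE 0.45, adjusted p = 0.0631). miR-30a-3p had between 395 and 1330 in PD20 (median 1145) and 340, 383, 233, 610 and 640 in CD20, a log2FC of 1.30 (SE 0.38, adjusted p = 0.0643). In both arms, replicate 4 was the low library of PD20 and overlapped the CD20 libraries.

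miR-30d-5p had between 6911 and 16575 normalised reads in PD20 (median 10084). The CD20 libraries had 3307, 3165, 5956, 5511 and 6609, all below the lowest of PD20. The log2FC was 1.15 (SE 0.35, adjusted p = 0.0672). For miR-30a-5p the log2FC was 0.71 (SE 0.32, adjusted p = 0.164). The log2FCs of miR-30b-5p, miR-30c-5p and miR-30e-5p were -0.38, 0.06 and -0.36, none at an unadjusted p under 0.05. Of the remaining 3p arms, miR-30d-3p had a log2FC of 0.48 (SE 0.37, adjusted p = 0.394) and miR-30e-3p one of 0.66 (SE 0.44, adjusted p = 0.332).

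Single libraries decided how many members were called. With each of the 11 libraries left out in turn, 0 members were called in 7 cases. The other cases included 9 members without CD20 replicate 5 (6.76% of all listed sequences) and 12 without CD20 replicate 4 (11.9%). Without PD20 replicate 4, 13 members were called, 8 from 3p arms and 5 from 5p arms, 11 of them higher, but then 13.3% of all listed sequences were called as well. The calls then took in canonical miR-30a-3p (log2FC 1.30), canonical miR-30c-3p (1.85), canonical miR-30d-5p (1.63) and miR-30a-5p 3' ADD CT (1.17), and, as lower, miR-30a-5p 3' DEL AG (-2.58) and miR-30e-5p 3' DEL AGCT (-2.41). Without PD20 replicate 1, 0 members and 1.03% of all listed sequences were called in the F-test of edgeR, with 21 members at an unadjusted p under 0.05, and the log2FCs of the 3 called forms were 1.71, 2.19 and 2.56. The 3p members had a median log2FC of 1.04 without replicate 1, with 21 of 22 positive (miR-30d-3p 5' DEL C was at -0.01), and of 1.27 without replicate 4, with 22 of 22 positive.

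PD20 replicate 1 also stood apart in markers of muscle. The muscle list (miR-1, miR-133a, miR-133b, miR-206 and miR-499, 3 of 5 found, 8 sequences, led by miR-1) summed to 40186 normalised reads there, against 1416 to 8098 in the other PD20 libraries and 1111 to 8771 in CD20. The smooth muscle list (miR-143 and miR-145, 2 of 2 found, led by miR-143) summed to 636004 there and to 76379 to 138143 in the other PD20 libraries. In PD20 vs CD20 the median log2FC was 1.77 for the muscle list and 0.89 for the smooth muscle list (31 sequences), with 0 sequences of either called by the F-test of edgeR. Without PD20 replicate 1, a setting added after the data were seen, these medians were 0.28 and 0.11, while that of the 3p members was 1.04. The epithelial list (10 of 10 found, 67 sequences, led by miR-200c) summed to 19374 ± 4581 in PD20 and 12599 ± 2303 in CD20, with a median log2FC of 0.56 and 3 sequences called lower. The leukocyte list (4 of 5 found) had a median log2FC of -0.39, the endothelial list (1 of 1) one of -0.38 and the erythrocyte list (3 of 3) one of 0.52. The lists were matched by name, so sequences listed under an Ensembl identifier alone were not counted. The part of these cell types in the miR-30 differences was not tested.

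A marker of embryonic cells was present in PD20. The sequence that the study's assay table gives for miR-302, a miRNA of pluripotent and embryonic cells, is in the list under Ensembl identifiers. It was added after the data were seen. It had 7, 4, 11, 117, 48 and 121 reads in PD20 (2.37 to 41.2 normalised reads), 2, 0, 0, 0 and 1 reads in CD20 and 0 reads in the other 19 libraries. All 6 PD20 libraries lay above those of CD20. The sequence met the read threshold of the list through PD20 alone, so this separation is not independent of its listing. Within PD20, replicates 4 and 6 had the most miR-302 and replicate 3, with 11 reads, had the most miR-30a-3p 3' DEL C. The part of embryonic or trophoblast RNA in the PD20 values of miR-30 was not tested.

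Within pregnancy, PD16 and PD20 were compared jointly with PD12. No member was called (0 of 53, against 0.802% of all listed sequences), with 10 members at an unadjusted p under 0.05 in the F-test of edgeR, or 18.9% of the members against 18.7% of all listed sequences. Some members were called with the title number, the library number in the sample title, as a block. Their count is given with the other settings at the end. DESeq2 called 6 members (5.73% of all listed sequences), and PD20 vs PD12 tested as a single contrast called 5 (2.86%), all higher in PD20. These 5 were miR-30a-5p 3' DEL GAAG and miR-30a-3p 5' DEL C, 3' DEL C (adjusted p = 0.0417 for both), and miR-30a-3p 3' ADD C, miR-30c-5p 3' DEL C and miR-30a-3p 3' DEL C (adjusted p = 0.0497 for each), with log2FCs of 2.01, 1.98, 1.94, 1.30 and 1.49. miR-30a-3p 3' ADD C and miR-30a-3p 3' DEL C are named here after their values were seen. miR-30a-3p 3' ADD C met the list's threshold of 10 reads in most libraries of a group through PD20 alone. Its call is therefore not independent of its listing. The smallest p-values were those of scarce forms. miR-30a-3p 5' DEL C, 3' DEL C had 4.69, 5.15, 12.9, 3.05 and 6.41 normalised reads in PD12, 3.03, 9.43, 13.9, 12.3 and 8.57 in PD16 and the PD20 values given above. Its log2FC of PD20 vs PD12 was 1.98 (joint adjusted p = 0.0520), and only 1 PD12 library overlapped the PD20 range.

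miR-30a-5p 3' DEL GAAG, an 18-nt form, had 2.81, 8.25, 4.16, 3.73 and 3.21 normalised reads in PD12 and between 8.28 and 27 in PD20 (median 19.7), with a log2FC of 2.01 (joint adjusted p = 0.0520). miR-30c-5p 3' DEL C had a log2FC of 1.30 in PD20 vs PD12 (joint adjusted p = 0.0792). Its groups did not overlap either. Non-overlap higher in PD20 was found for 4 members, against 2.18% of all listed sequences.

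As arm sums, 0 of 9 were called within pregnancy (against 0.844% of all features), with 2 at an unadjusted p under 0.05 (18.7%). miR-30e-5p lay lower on D20, unlike most arms. It had 1016, 903, 608, 1061 and 1536 normalised reads in PD12, 787, 636, 537, 762 and 646 in PD16 and between 332 and 827 in PD20 (median 565), a log2FC of -0.79 in PD20 vs PD12 (SE 0.28, adjusted p = 0.128 for the single contrast). miR-30b-5p had 432, 451, 516, 479 and 471 in PD12 and between 526 and 859 in PD20 (median 678), without overlap, and a log2FC of 0.61 (SE 0.23, adjusted p = 0.147).

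In PD20 vs PD16, 0 of 53 members were called (against 0.573% of all listed sequences) and 9 stood at an unadjusted p under 0.05, 17% of the members against 14.2%. The smallest p-values belonged to the same 3 forms as in the joint comparison, which shares the PD16 and PD20 libraries: miR-30a-3p 5' DEL C, 3' DEL C (log2FC 1.39, adjusted p = 0.187), miR-30a-5p 3' DEL GAAG (1.38, adjusted p = 0.209) and miR-30c-5p 3' DEL C (0.92, adjusted p = 0.244). Of the 9 arm sums 0 were called (against 0.603% of all features), and 1 stood at an unadjusted p under 0.05 (14.1%). That arm was miR-30d-3p with a log2FC of -1.21 (SE 0.52, adjusted p = 0.280).

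Within the cycle, CD16 and CD20 were compared jointly with CD12. No member was called (0 of 53, against 0.458%), and 13 members, or 24.5%, stood at an unadjusted p under 0.05 against 23.9% of all listed sequences. DESeq2 called 4 (9.97%). miR-30d-5p had forms among the members with the smallest p-values of this F-test, none of them called. Its canonical sequence had 1374, 1889, 2008 and 2389 normalised reads in CD12 and 9248, 4036, 1258, 4095 and 7561 in CD16, a log2FC of 1.57 in CD16 vs CD12 (joint adjusted p = 0.121). The CD16 libraries were spread widely, and replicate 3 lay below all of CD12. miR-30d-5p 3' DEL T had a log2FC of 2.08 in CD16 vs CD12 (joint adjusted p = 0.121), and miR-30c-5p 3' DEL C had one of 1.69 in CD20 vs CD12 (joint adjusted p = 0.121).

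The 5p and 3p members had medians of opposite sign in CD20. The median log2FC of the 5p members was 0.56 in CD20 vs CD12 and 0.41 in CD20 vs CD16, and that of the 3p members was -0.75 and -0.45, against 0.09 and -0.03 for all listed sequences. Both comparisons share the CD20 libraries. In CD20 vs CD16, 0 of 53 members were called (against 0.458%), and 12, or 22.6%, stood at an unadjusted p under 0.05 against 21.2%. DESeq2 called 4 members there (8.59% of all listed sequences), and 3 members lay higher without overlap, against 3.44% of all listed sequences.

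miR-30b-5p 3' DEL T had 170.4, 131, 56.3, 66.8 and 46.7 normalised reads in CD20 and 32, 40.3, 26.4, 38.9 and 27.5 in CD16, without overlap, and a log2FC of 1.43 (SE 0.45, adjusted p = 0.0969). miR-30c-5p 3' DEL GC had a log2FC of 1.67 (adjusted p = 0.0957). Canonical miR-30d-5p went the other way with a log2FC of -1.62 (adjusted p = 0.0969), from 626, 841, 2239, 2388 and 3222 normalised reads in CD20. Its CD20 libraries overlapped those of CD16 through replicate 3 of CD16.

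Arm sums in the cycle gave 0 of 9 calls in the joint comparison (against 0.844% of all features) with 2 at an unadjusted p under 0.05 (23.5%), and 0 of 9 in CD20 vs CD16 (against 0.483%) with 3 (21.1%). In CD20 vs CD16 these were miR-30b-5p (log2FC 1.32, SE 0.44, adjusted p = 0.103), miR-30d-5p (-1.18, SE 0.44, adjusted p = 0.134) and miR-30c-3p (-1.03, SE 0.45, adjusted p = 0.191). The miR-30b-5p sums of CD20 were 1864, 1283, 519, 415 and 476, so replicates 1 and 2 stood far above the other 3, which reached down to the CD16 range of 279 to 439.

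**Figure D4:**
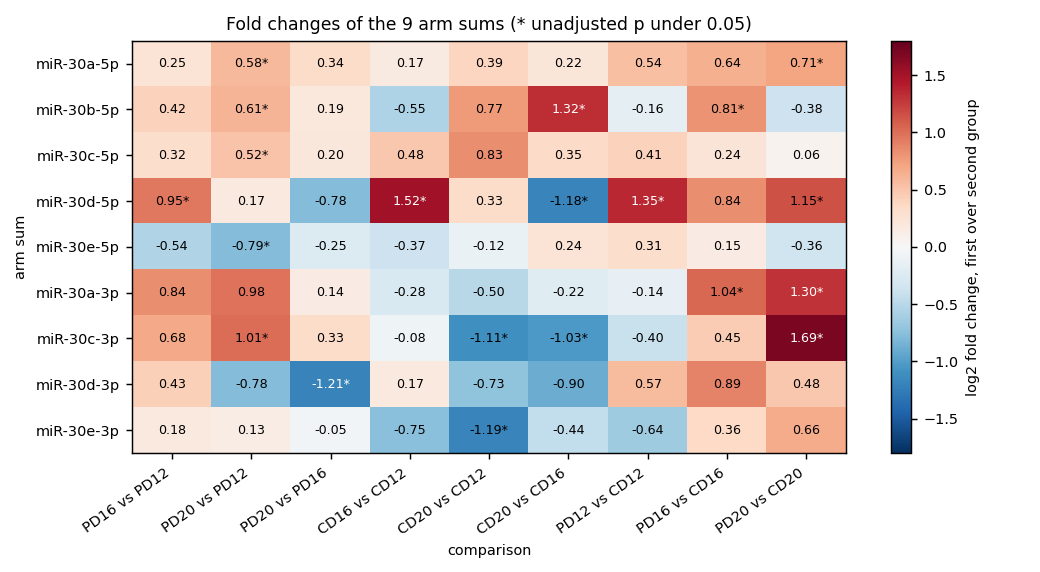
Log2 fold changes of the 9 miR-30 arm sums (rows) in the 9 comparisons of 2 groups (columns), with the first group over the second, from blue (lower) to red (higher). Asterisks mark an unadjusted p under 0.05, no value passed the adjusted threshold, and miR-30a-3p, miR-30c-3p and miR-30d-5p are the highest in the column PD20 vs CD20.

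On D12, pregnancy and the cycle differed in 0 of 53 members (0% of all listed sequences were called), and 3 members, or 5.66%, stood at an unadjusted p under 0.05 against 6.08%. DESeq2 called 0 members and 0% of all. Of the 3, 2 were forms of miR-30d-5p. The canonical sequence had 3713, 6012, 10230, 3997 and 2638 normalised reads in PD12 and the CD12 values given above, so that the lowest PD12 library lay above the highest of CD12. It was the 1 member without overlap, against 1.49% of all listed sequences that lay higher without overlap. Its log2FC was 1.48 (SE 0.42, adjusted p = 0.677). The sum of the arm had a log2FC of 1.35 (SE 0.42, adjusted p = 0.664), from 4601 to 17658 in PD12 and 3299 to 4375 in CD12. miR-30d-5p 3' DEL T had a log2FC of 1.8 and miR-30a-5p 5' DEL T, 3' ADD C one of 1.07 (adjusted p = 0.677 for both).

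On D16, 0 of 53 members were called (0% of all listed sequences) and 7, or 13.2%, stood at an unadjusted p under 0.05 against 10.9%, all higher in pregnancy (4.59% of all listed sequences). DESeq2 called 0 members and 0.803% of all. miR-30c-5p 3' DEL GC had a log2FC of 1.47 (adjusted p = 0.313), miR-30b-5p 3' DEL T one of 0.89 (adjusted p = 0.336) and canonical miR-30a-3p one of 1.31 (adjusted p = 0.378). The sum of miR-30b-5p was 497 to 693 in PD16 and 279 to 439 in CD16, without overlap, with a log2FC of 0.81 (SE 0.30, adjusted p = 0.338). Of the 9 arm sums 0 were called on D12 and on D16 (0% of all features in each), with 1 and 2 at an unadjusted p under 0.05 (6.28% and 11.5%).

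Whether the pregnant-cyclic difference departs between days was tested over all 30 libraries. No member was called in D20 against D12, D20 against D16 or D16 against D12 with the F-test of edgeR (against 0.115%, 2.41% and 0% of all listed sequences), and 11, 10 and 2 members stood at an unadjusted p under 0.05, against 16.4%, 19.1% and 8.13% of all listed sequences. The likelihood ratio test of edgeR called 3 members in D20 against D12 (1.83% of all listed sequences). The smallest adjusted p of a member was 0.0577, for D20 against D12. The positive log2FCs of the 3p members in PD20 vs CD20 were therefore not shown to be particular to D20.

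The 5p arm was not dominant to the same degree in each hairpin. The ratio of 5p to 3p reads was taken within each library, from the summed listed forms with 0.5 reads added to each arm, so that it does not depend on library size. Its geometric mean over the 30 libraries was 347 for miR-30d (range 100.7 to 727), 37.7 for miR-30a (12.3 to 117), 2.48 for miR-30e (0.777 to 9.73) and 2.04 for miR-30c (0.472 to 15.2). The 3p arm had more reads than the 5p arm in 6 of 30 libraries for miR-30c and in 2 for miR-30e, and in 0 of 30 for miR-30a and miR-30d. No listed form of miR-30c-3p is named for miR-30c-1, whereas reads of miR-30c-5p can come from both precursors, so the ratio of miR-30c is not that of a single hairpin.

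Between groups, the ratio was compared with limma over the 22 hairpins of the list with both arms. In CD16 vs CD12, 1 of the 4 miR-30 hairpins was called, against 18.2% of all hairpins. The log2 ratio of miR-30d was 8.41, 7.00, 6.96 and 7.09 in CD12 and 8.31, 8.20, 8.14, 8.84 and 9.48 in CD16, a difference of 1.23 (SE 0.43, adjusted p = 0.0444). Replicate 1 of CD12 lay within the CD16 range and the other 3 libraries below it. The exact two-sided permutation test gave an unadjusted p = 0.0476 (22.7% of all hairpins were under 0.05), and the call was lost when any of 7 of the 9 libraries was left out, all but CD12 replicate 1 and CD16 replicate 3.

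In the other 8 comparisons of 2 groups 0 of 4 hairpins were called, against 4.55% of all hairpins in PD20 vs PD12, 13.6% in PD20 vs CD20 and 0% in the other 6. At an unadjusted p under 0.05 by an exact two-sided permutation test stood 1 hairpin in PD20 vs PD12 (13.6% of all hairpins) and 2 in PD20 vs CD20 (22.7%). The largest difference was that of miR-30c in CD20 vs CD12, 2.03 on the log2 scale (SE 0.68, adjusted p = 0.0679). In PD20 vs CD20 the log2 ratio of miR-30c was 0.69 ± 1.00 (n = 6) and 2.26 ± 1.21 (n = 5), a difference of -1.57 (SE 0.61, adjusted p = 0.0717), and that of miR-30d was 0.75 higher in PD20 (SE 0.39, adjusted p = 0.158).

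The ratios of miR-30a, miR-30c and miR-30e varied together, also within groups. Over the 30 libraries, the log2 ratios of miR-30a and miR-30e had a Pearson r of 0.93 (permutation p = 1e-05, the smallest that the 100000 permutations can give, adjusted p = 5e-05) and a Spearman rho of 0.91 (permutation p = 1e-05, adjusted p = 1e-04). Without the 2 libraries farthest from the median r was 0.92, and after the group means were taken off it was 0.94. For miR-30a and miR-30c r was 0.68 and rho 0.63 (adjusted permutation p = 1e-04 and 0.00065), and for miR-30c and miR-30e r was 0.74 and rho 0.65 (adjusted permutation p = 5e-05 and 0.00065). Without the 2 farthest libraries these were 0.66 and 0.66, and within groups 0.66 and 0.73.

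For the ratio of miR-30d no relation passed the permutation test. Its r was 0.12 with miR-30a, 0.25 with miR-30c and -0.01 with miR-30e (rho 0.08, 0.16 and -0.03, adjusted permutation p from 0.23 to 0.97 for r and from 0.48 to 0.87 for rho). Without the 2 farthest libraries r was 0.09, 0.29 and 0.11, and within groups 0.2, 0.39 and 0.13, for which no p was computed. In these tests 10 relations were computed, 6 between hairpins and 4 with measures of the library, and p-values were adjusted over the 10.

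Measures of the whole library moved with the mean ratio of miR-30a, miR-30c and miR-30e. Its r was 0.63 with the TMM factor (rho 0.63, adjusted permutation p = 0.00045 and 0.00065; 0.55 without the 2 farthest libraries) and 0.54 with the GC content of the listed reads (rho 0.54, adjusted permutation p = 0.0044 and 0.0053; 0.49 without them). With the mean length of the listed reads r was -0.44 (rho -0.34, adjusted permutation p = 0.024 and 0.11), and with the depth of the library it was -0.32 (rho -0.29, adjusted permutation p = 0.12 and 0.17). The group means of GC content lay between 40.2% and 40.9%. Of the 18 hairpins outside the family, 10 had a positive r with the same mean ratio (median 0.29), from -0.83 for miR-200a to 0.76 for miR-374a. The part of library preparation or of the pools in this shared spread was not tested, and the labels do not give the pool of a library.

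**Figure D5:**
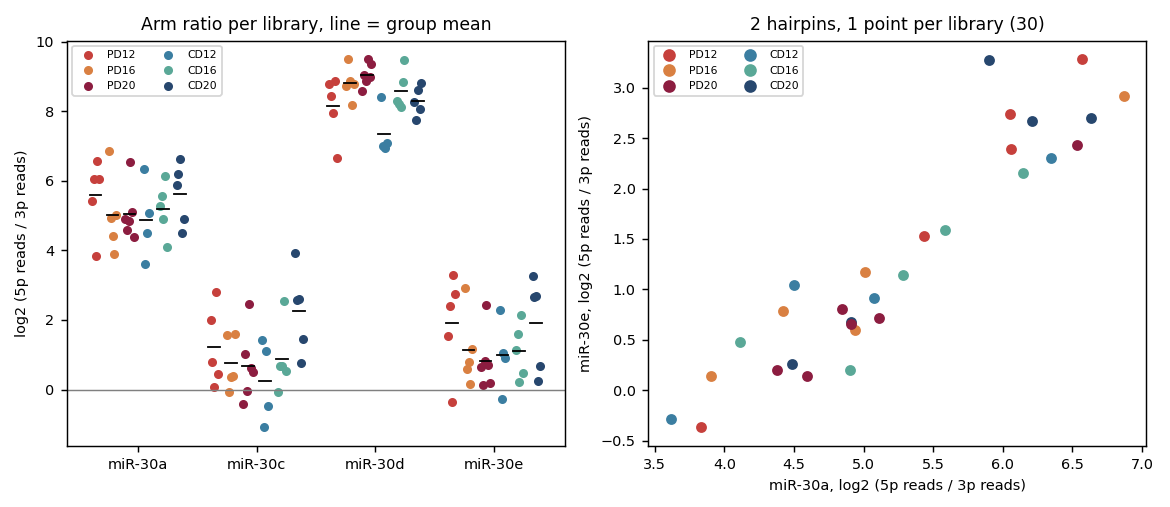
Left, log2 ratio of 5p to 3p reads of 4 miR-30 hairpins with 1 point per library, colored by group in the order of the legend, and a line at the group mean. Right, the log2 ratio of miR-30e (y axis) against that of miR-30a (x axis) in the same 30 libraries, which lie along a line with libraries of all 6 groups mixed (r = 0.93).

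The lengths of the reads within an arm were compared between groups. The read-weighted mean length over the 30 libraries was 23.3 ± 0.215 nt for miR-30a-5p, 23 ± 0.306 nt for miR-30d-5p, 23.4 ± 0.166 nt for miR-30e-5p and 21.5 ± 0.11 nt for miR-30a-3p. With limma over the 159 arms of the list that have at least 2 lengths, 0 of 9 miR-30 arms were called in any of the 9 comparisons, against 10.1% of all arms in PD20 vs PD12, 7.55% in PD20 vs CD20, 1.26% in CD16 vs CD12, 0.629% each in CD20 vs CD16 and PD16 vs CD16, and 0% in the other 4. At an unadjusted p under 0.05 the exact permutation test put 3 of 9 arms in PD20 vs PD16 (13.2% of all arms) and in CD20 vs CD16 (18.2%), 2 in PD20 vs CD20 (21.4%), and 1 each in PD16 vs PD12 (8.81%), PD20 vs PD12 (27.7%), CD16 vs CD12 (12.6%) and PD16 vs CD16 (6.92%). The mean length of miR-30b-5p was 21.8393 to 21.8785 nt in PD20 (median 21.8689), against 21.8809 to 21.9095 nt in PD12 and 21.8829 to 21.923 nt in PD16, without overlap. The difference was -0.0339 nt against PD12 and -0.0327 nt against PD16 (unadjusted p = 0.00216 by the exact permutation test in both, adjusted p = 0.112 and 0.187 with limma). miR-30a-5p was longer by 0.33 nt in PD20 than in CD20 (23.4 and 23.1 nt, SE 0.11, adjusted p = 0.0619 with limma) and miR-30e-5p by 0.22 nt (SE 0.08, adjusted p = 0.0883). The difference was largest for miR-30d-5p, at 0.39 nt (SE 0.16, adjusted p = 0.11). These lengths are computed from the same reads as the forms described above and are not independent of them.

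Across the 30 libraries, the arm most like miR-30a-3p was miR-30c-3p (Pearson r of log2 normalised reads 0.82), and the reverse held as well. miR-30e-3p was most like miR-30a-3p (0.74), miR-30d-5p and miR-30d-3p were most like each other (0.65), as were miR-30b-5p and miR-30c-5p (0.64), and miR-30a-5p was most like miR-30c-5p (0.57). miR-30e-5p had no close match: its highest r was 0.08, with miR-30b-5p, and its lowest -0.50, with miR-30a-3p. These r values are descriptions over libraries that share their depth and scaling, without a test.

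Outside the family, 506 listed sequences with a mean of at least 10 normalised reads were compared with the sum of all miR-30 5p reads. The most alike were a sequence listed under the rat name of miR-200c-3p (r = 0.71 over 30 libraries), a form listed under let-7b of other mammals (0.64) and a sequence listed under ENSSSCG00000026963 (0.63). The miR-200c-3p sequence averaged 43.9, 86.1 and 73.4 normalised reads in PD12, PD16 and PD20, and 17, 62.1 and 33.9 in CD12, CD16 and CD20.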

How the data were processed

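Per the labels, total RNA with an integrity number above 7 was made into NEXTflex small RNA libraries, sequenced in 3 pools. The authors joined 2 runs, kept reads with phred scores above 20, removed adapters and reads under 17 nt, and deposited the raw read count of each distinct sequence per library, without alignment or normalization. The study's list of annotated sequences supplied names and sequences only. Here, counts were joined to it by exact match and tested as described in the report, with edgeR 4.0.16 (prior count 0.125), limma 3.58.1 and DESeq2 1.42.0 in R 4.3.3. Each SE is the log2FC over the square root of its F statistic. The count tests of PD20 vs CD20 and the limma test of the ratio were checked on simulated data. The joint, day-difference, arm-sum, length and correlation tests were not simulated. The joint comparisons and D20 vs D16 used a fit of the 3 groups of a status, and each pregnant-cyclic comparison its own 2 groups, without covariates.

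The members, lists and tests were chosen with earlier results of these data known. Named were all arm sums, canonical and most abundant forms, all called members, up to 3 members per comparison with the smallest unadjusted p under 0.05, and the most alike sequences. Marker lists were matched by name. An embryonic list (miR-302, miR-367, miR-371, miR-372 and miR-373) matched 0 of 5 by name, but the miR-302 sequence of the study's assay table is listed under Ensembl identifiers and was counted by sequence. This count was added after the data were seen. Replicates are separate animals, and no 2 libraries of a group agreed within sampling noise. Alternatives included other tests, normalizations, filters, blocks and each library left out. Reads carry no molecular identifiers.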

Additional observations from a re-analysis of the deposited data

Results flagged for a closer look

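Chance alone gives a far library in about 1 in 20 groups. Of the 150 groups of 4 to 6 values examined, 15 (10%) held a library far from the others of its group. Libraries of D20 pregnancy gave 4 of these: replicate 4 had the highest log2 ratio of 5p to 3p reads for miR-30a (6.54) and miR-30e (2.43), and replicate 3 had the most reads of miR-30a-3p 3' DEL C (538 normalised reads) and miR-30c-3p 3' DEL CT (22.9). In PD12, replicate 3 was far above the others in summed miR-30a-3p (1284 normalised reads), and its mean length of miR-30b-5p was the lowest (21.88 nt), while replicate 4 had the highest miR-30c-5p (892 normalised reads). PD16 replicate 4 had the highest miR-30d-3p (127 normalised reads). In CD12, replicate 1 had the highest log2 ratio of miR-30d (8.41) and the shortest miR-30d-5p (22.4 nt), and replicate 3 had the longest miR-30a-3p (21.57 nt) and the shortest miR-30b-5p (21.88 nt). CD16 replicate 4 had the highest log2 ratio of miR-30c (2.56), CD16 replicate 5 the most miR-30a-3p 5' DEL C, 3' DEL C (13.2 normalised reads) and CD20 replicate 4 the shortest miR-30b-5p (21.84 nt). The cause was not tested.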

How the results depend on the processing

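Of the values printed, 37 (log2FCs and 1 ratio) were followed through the alternatives. None of these changed its sign under the alternatives run for it. Other values, near 0, did in PD20 vs CD20. The sum of miR-30c-5p was 0.06 and, without PD20 replicate 4, -0.01. The sign also changed for 2 members without PD20 replicate 1 and 1 without replicate 4, 0 of them at an unadjusted p under 0.05 in the F-test of edgeR. Counts of called members changed. For PD20 vs CD20 (3 members), the likelihood ratio test of edgeR called 13, DESeq2 14 and 1 fit of all 30 libraries 9, but these called 14.2%, 15% and 11.2% of all listed sequences, and 0 were called with library sizes set to all deposited reads, with all deposited sequences, at a mean of at least 10 CPM and with the replicate block. For PD16 and PD20 vs PD12 (0 members), these gave 5, 6 and 3 (5.73%, 5.73% and 2.06% of all), the filter of 10 CPM 1 (2.22%), the title number as a block 2 (0.916%) and the single contrast PD20 vs PD12 5 (2.86%). For CD16 and CD20 vs CD12 (0) the first 3 gave 4, 4 and 2 (9.05%, 9.97% and 7.79%), for CD20 vs CD16 (0) 3, 4 and 4 (6.41%, 8.59% and 7.33%), and for the day difference D20 against D12 (0) the likelihood ratio test gave 3 (1.83%). Arm sums called were 3 by both other tests in PD20 vs CD20, 1 by both in CD16 and CD20 vs CD12 and 1 by DESeq2 in CD20 vs CD16. The ratio call of miR-30d in CD16 vs CD12 was lost (0) with a pseudocount of 5 reads, with only the most abundant sequence of each arm and with the replicate block. In PD20 vs CD20 the most abundant sequences gave 1 called ratio, and the exact unadjusted test gave 2, with 1 in PD20 vs PD12. For lengths, the filter of 10 CPM gave 1 arm in PD20 vs CD20, and the exact unadjusted test gave 2 there, 3 each in PD20 vs PD16 and CD20 vs CD16, and 1 each in PD16 vs PD12, PD20 vs PD12, CD16 vs CD12 and PD16 vs CD16.

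With each library left out in turn, members called ranged from 0 to 13 in PD20 vs CD20, 0 to 3 in PD16 and PD20 vs PD12 and in PD16 vs CD16 (3 without PD16 replicate 1 in both), 0 to 2 in CD16 and CD20 vs CD12 (without CD16 replicate 3), in CD20 vs CD16 (without CD20 replicate 3) and in D20 against D12. Arm sums ranged from 0 to 3 in PD20 vs CD20 and 0 to 1 in CD16 and CD20 vs CD12, ratios from 0 to 1 in CD16 vs CD12 and PD20 vs CD20 and 0 to 2 in CD20 vs CD12 (without CD12 replicate 1), and lengths from 0 to 3 in PD20 vs CD20 (without CD20 replicate 5) and 0 to 1 in CD20 vs CD16. The cause was not tested. Replicate numbers did not pair the animals: of 70 same-numbered pairs 18 had a correlation of deviations over 0.1 (median -0.04), and 8 of 30 libraries were most alike with their own number. Scarce forms limit precision: miR-30c-3p 3' DEL CT rests on 2 to 8 reads in a CD20 library. Sequences outside the list that share the first 19 bases of a member would add 31.3% to the reads of all members together.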
